A study of Mus musculus with 4 samples.

Results

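Liver-made plasma proteins are the carriers, protease inhibitors, clotting proteins and other factors that hepatocytes secrete into the blood. A list of 33 genes for such proteins was set against the probe annotation of an expression array run on mouse stomach, and 30 of the 33 had a probe set named for that gene alone, of 22180 genes measured in all. Serpina3k, Trf and Gc are not analysed here. The genes were put on the list because of their values on these arrays, so their levels and differences are given as a description and no gene of the list gets a p-value.

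The stomach tissue came from FVB mice aged 1 year. There were 2 arrays from Hdc-/- mice, which lack a functional gene for histidine decarboxylase, the enzyme that makes histamine, and 2 arrays from Hdc+/+ mice, which carry it. No other allele or treatment is named in the labels, and both groups shared the strain, the age and the diet. Arrays of 1 genotype are titled as biological replicates. How many animals gave tissue to each is not stated, so the spread within a genotype may be partly technical. Values are RMA values, which are normalised array signals on the log2 scale, so that a difference of 1 is a doubling of signal.

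Facts of the whole data set that bear on the list are few. Over all genes the median value was 4.56 and 4.60 on Hdc-/- arrays 1 and 2 and 4.60 and 4.58 on Hdc+/+ arrays 1 and 2. The stomach label was checked with the 2 brightest of the 15 genes called gastric gland genes below, a list that also holds surface cell genes. Not all of that list read high, and Lipf lay between 2.36 and 2.73. The gastrokine genes Gkn1 and Gkn2 read between 12.81 and 13.35 on all 4 arrays. Hdc itself read 3.77 and 4.06 on the Hdc-/- arrays and 3.99 and 3.82 on the Hdc+/+ arrays, a difference of 0.01 (SE 0.19, n = 2 each). Hdc thus read below the median over all genes on all 4 arrays, those of Hdc+/+ included. The place of its probes relative to the deleted part was also not known. This gene therefore gave no check of the genotype labels, on which every direction rests. Over the whole table, limma with Benjamini-Hochberg adjustment called 1 gene higher and 0 lower in Hdc-/- at an adjusted p under 0.05, which is 0.00451% of genes. Before adjustment, 816 genes were higher and 1081 lower by limma at a p under 0.05. No gene of the plasma protein list was called lower in that fit. Fits with other settings called some of its genes lower.

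Hepatocytes are the main source of albumin, of most clotting factors and of most protease inhibitors in plasma. Transcription of these genes in liver is driven by a shared set of regulators, among them the hepatocyte nuclear factors and the C/EBP proteins. An array of tissue RNA reads the transcripts of the cells in the sample, not the plasma proteins that the blood brings in. In bulk tissue, fewer cells of a type and less RNA per cell cannot be told apart.

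All 30 measured genes averaged lower on the Hdc-/- arrays than on the Hdc+/+ arrays. The median log2 difference over the list was -3.00, with a range from -7.61 to -1.42, against a median of 0.02 over all genes. In 29 of the 30 both Hdc-/- arrays read below both Hdc+/+ arrays, which 17.6% of all genes also did. The same 29 were lower by at least 1 on the log2 scale and without overlap, as 1.98% of all genes were. Itih2 was the exception in both counts because it overlapped, its difference being -1.66. The values that chose the list are the ones counted here, so these counts describe the list and test nothing. Among the 10 genes of the whole table with the most negative difference 6 belonged to the list, and among the 200 most negative 27 did.

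The list also separated the Hdc+/+ arrays from each other. All 30 genes read higher on Hdc+/+ array 2 than on Hdc+/+ array 1, which 45.0% of all genes did, and 29 did so by at least 1 on the log2 scale, against 2.04% of all genes. The exception was Kng1. The median of this difference was 2.02 over the list, with a range from 0.52 to 2.58, and -0.03 over all genes. The mean level of the list was 4.04 on each of the Hdc-/- arrays, 6.34 on Hdc+/+ array 1 and 8.22 on Hdc+/+ array 2. Each array stands alone in this comparison, so it has no replicate check. On the Hdc-/- side only Ttr and Itih2 differed between the arrays by at least 1, a rule that 2.04% of all genes met.

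**Figure D1:**
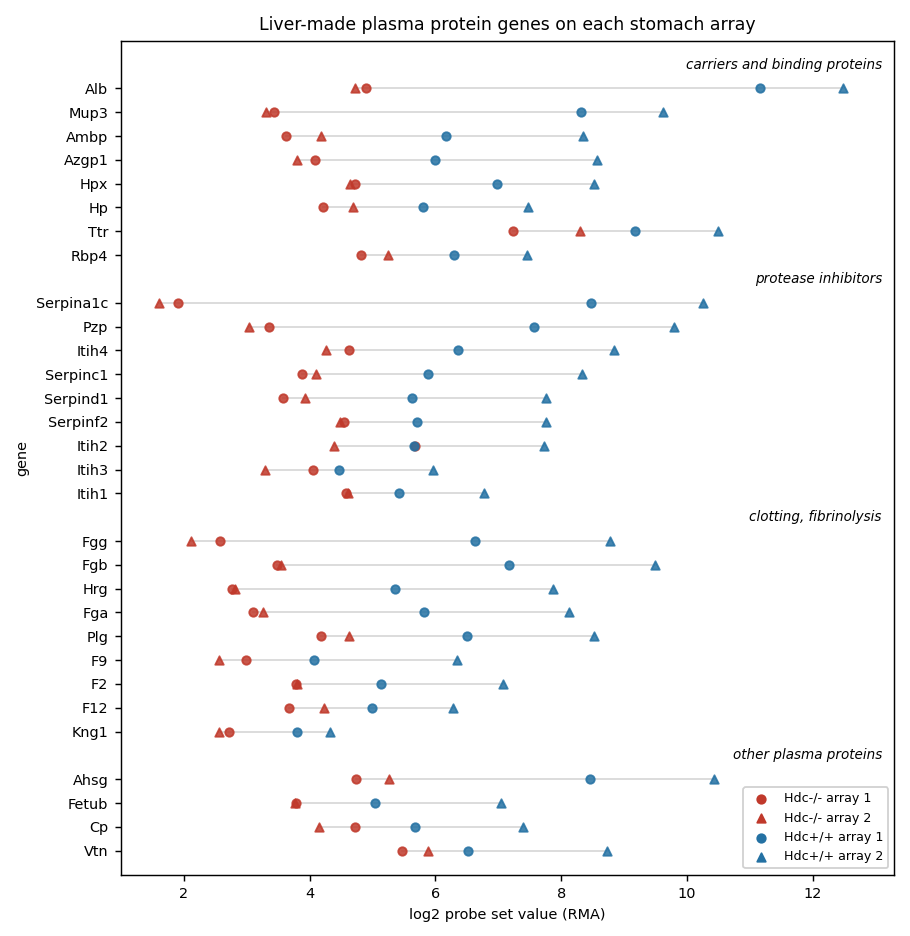
Log2 probe set value (horizontal axis) of each of the 30 genes (rows, grouped by role) on the 2 Hdc-/- arrays (red) and the 2 Hdc+/+ arrays (blue), with array 1 as circles and array 2 as triangles. In every row the blue triangle lies farthest to the right, and the blue circle lies between it and the red points in all rows but Itih2, where the circles of both genotypes coincide near 5.7.

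Promoter sequences were examined because the genes of the list lay lower together. Windows from 250 bases before to 50 bases after the annotated start, from RefSeq on the mouse build GRCm38.p6, were given for 26 of the 30 genes, in 29 windows. The letters GTTAAT, an arm of the palindromic site of the hepatocyte nuclear factor 1 family, were searched on both strands (ATTAAC on the other) and found in 9 of the 29 windows (31.0%), against 7.10% of all 32851 windows. The letters TTGCNNAA, of the C/EBP type, were found on either strand in 11 of the 29 windows (37.9%), against 10.8% of all. AAAGTCC, of the hepatocyte nuclear factor 4 type, was found on either strand in 2 (6.90%), against 4.21% of all. No match of these motifs overlapped one of another motif in the windows of the list. A match is a run of letters and not a shown binding site.

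In 5 genes a GTTAAT match, on either strand, began within 60 bases before the start, a distance picked after the matches were seen, which 1.44% of all windows showed. The 150 bases directly before the start of these 5 genes are printed 5′ to 3′ on the strand of the gene, with the match in capitals, because they hold the matches that lie nearest before the start among the genes of the list. They are albumin (Alb, chr5:90460720-90460869, + strand), alpha-1 antitrypsin (Serpina1c, chr12:103904951-103905100, - strand), the alpha and beta chains of fibrinogen (Fga, chr3:83026003-83026152, + strand, and Fgb, chr3:83049864-83050013, - strand) and an inter-alpha-trypsin inhibitor heavy chain (Itih1, chr14:30943290-30943439, - strand).
Alb: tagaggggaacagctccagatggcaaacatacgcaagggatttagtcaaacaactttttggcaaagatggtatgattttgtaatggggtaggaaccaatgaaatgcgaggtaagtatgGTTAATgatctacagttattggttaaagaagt
Serpina1c: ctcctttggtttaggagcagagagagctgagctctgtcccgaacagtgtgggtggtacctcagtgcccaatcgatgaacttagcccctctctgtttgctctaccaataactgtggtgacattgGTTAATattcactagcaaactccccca
Fga: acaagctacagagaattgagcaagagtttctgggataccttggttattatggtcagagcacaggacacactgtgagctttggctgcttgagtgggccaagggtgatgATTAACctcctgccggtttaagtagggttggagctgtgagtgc
Fgb: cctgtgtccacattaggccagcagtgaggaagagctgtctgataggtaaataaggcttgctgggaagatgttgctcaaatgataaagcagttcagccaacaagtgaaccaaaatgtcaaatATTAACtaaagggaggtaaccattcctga
Itih1: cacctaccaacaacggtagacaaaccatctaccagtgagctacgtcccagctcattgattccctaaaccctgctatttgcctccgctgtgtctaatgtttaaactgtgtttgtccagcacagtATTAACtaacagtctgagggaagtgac
The first base of the match lay 32 bases before the start in Alb, 27 in Serpina1c and in Itih1, 43 in Fga and 29 in Fgb. In F2 a match began 9 bases after the start, counting the start as 1, and that window is not shown. The 5 genes shown include both the largest difference of the list, that of Serpina1c, and one of the smallest, that of Itih1.

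Carriers and binding proteins made up 8 of the 30 genes. All 8 read lower on both Hdc-/- arrays than on both Hdc+/+ arrays, as 17.6% of all genes did. The median log2 difference of the 8 was -3.20. Alb encodes serum albumin, the most abundant plasma protein and a carrier of fatty acids. It read 4.90 and 4.71 on Hdc-/- arrays 1 and 2, against 11.17 and 12.48 on Hdc+/+ arrays 1 and 2. The Hdc-/- arrays lay close together and far below either Hdc+/+ array, and the log2 difference of the means was -7.02 (SE 0.42, n = 2 each), a signal 129.8-fold lower. Mup3, a major urinary protein gene whose product binds small volatile molecules, read 3.43 and 3.30 on the Hdc-/- arrays, against 8.31 and 9.62 on the Hdc+/+ arrays. Its log2 difference was -5.60 (SE 0.42). Mup3 belongs to a family of closely similar genes, and of its relatives Mup20 was measured and read 1.22 and 1.20 on the Hdc-/- arrays, against 1.80 and 1.36 on the Hdc+/+ arrays.

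The genes for scavengers of haemoglobin and heme differed by less than Alb. Hpx, which encodes the heme-binding protein hemopexin, read 4.72 and 4.64 on the Hdc-/- arrays, against 6.98 and 8.52 on the Hdc+/+ arrays, a log2 difference of -3.07 (SE 0.48). Hp, for the haemoglobin-binding protein haptoglobin, read 4.22 and 4.68 on the Hdc-/- arrays, against 5.80 and 7.47 on the Hdc+/+ arrays, a log2 difference of -2.18 (SE 0.54). Neither gene overlapped between the genotypes, and the difference of Hp was -1.35 without Hdc+/+ array 2. Ambp, whose precursor is cut into alpha-1-microglobulin and the protease inhibitor bikunin, and Azgp1, for zinc-alpha-2-glycoprotein, had log2 differences of -3.36 (SE 0.69) and -3.34 (SE 0.79). Azgp1 also had the largest difference of the list between the Hdc+/+ arrays, at 5.99 on array 1 and 8.57 on array 2, and its genotype difference was -2.05 without Hdc+/+ array 2.

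Ttr and Rbp4 encode partners, since transthyretin, which carries thyroid hormone, also holds the retinol-binding protein in plasma. Ttr read 7.24 and 8.31 on the Hdc-/- arrays, against 9.17 and 10.50 on the Hdc+/+ arrays, a log2 difference of -2.06 (SE 0.53). Its Hdc-/- values differed from each other by 1.07, and the groups did not overlap. Both Hdc-/- values of Ttr lay above the median over all genes, at the 88.7th and 95.8th percentile of genes on their arrays. Ttr is also made outside the liver, for example in pancreatic islets and in the choroid plexus. Rbp4 read 4.82 and 5.25 on the Hdc-/- arrays, against 6.30 and 7.46 on the Hdc+/+ arrays, a log2 difference of -1.85 (SE 0.40), the smallest among the carriers.

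Protease inhibitors made up 9 of the 30 genes, with a median log2 difference of -2.94. Of these, 8 read lower on both Hdc-/- arrays than on both Hdc+/+ arrays, as 17.6% of all genes did. Serpina1c, of the alpha-1 antitrypsin family that inhibits neutrophil elastase, had the most negative difference of all 22180 genes. It read 1.90 and 1.60 on the Hdc-/- arrays, against 8.47 and 10.25 on the Hdc+/+ arrays, a log2 difference of -7.61 (SE 0.56, n = 2 each). The Hdc-/- values lay at the 5.1 and 2.5 percentile of genes on their arrays, so no fold is given. Its relatives Serpina1a, Serpina1b, Serpina1d and Serpina1e had log2 differences of -0.93, -0.62, -0.07 and -0.56, and Serpina1d overlapped between the genotypes. These genes are closely similar in sequence, so the signal of the Serpina1c probe set cannot be assigned to that gene with certainty.

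Pzp encodes a protein of the alpha-2-macroglobulin family, which traps proteases. It read 3.35 and 3.03 on the Hdc-/- arrays, against 7.57 and 9.79 on the Hdc+/+ arrays, a log2 difference of -5.49 (SE 0.69), with a wide gap between the genotypes. The serpins that act on clotting and fibrinolysis differed by less. Serpinc1, for antithrombin, read 3.88 and 4.10 on the Hdc-/- arrays, against 5.88 and 8.33 on the Hdc+/+ arrays, a log2 difference of -3.12 (SE 0.75). Serpind1, for heparin cofactor II, and Serpinf2, for the plasmin inhibitor alpha-2-antiplasmin, had log2 differences of -2.94 (SE 0.66) and -2.21 (SE 0.63). Without Hdc+/+ array 2 the differences were -1.89 in Serpinc1, -1.87 in Serpind1 and -1.18 in Serpinf2. In all these serpins the gap between the Hdc+/+ arrays, from 2.06 to 2.45, was several times that between the Hdc-/- arrays, which was at most 0.35.

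The heavy chains of the inter-alpha-trypsin inhibitors, which bind hyaluronan, varied among themselves. Itih4 read 4.62 and 4.27 on the Hdc-/- arrays, against 6.37 and 8.83 on the Hdc+/+ arrays, a log2 difference of -3.16 (SE 0.76). Itih1 read 4.58 and 4.60 on the Hdc-/- arrays, against 5.41 and 6.78 on the Hdc+/+ arrays, a log2 difference of -1.50 (SE 0.44). Itih3 read 4.05 and 3.29 on the Hdc-/- arrays, against 4.47 and 5.97 on the Hdc+/+ arrays, a log2 difference of -1.55 (SE 0.52). Without Hdc+/+ array 2 these differences were -1.92 (Itih4), -0.82 (Itih1) and -0.80 (Itih3). Hdc-/- array 1 came near Hdc+/+ array 1 in Itih3, and in Itih2 it reached it. Itih2 read 5.68 and 4.38 on the Hdc-/- arrays, against 5.66 and 7.72 on the Hdc+/+ arrays. Its log2 difference of -1.66 (SE 0.74) was -1.02 without Hdc-/- array 2, -2.70 without Hdc+/+ array 1 and -0.63 without Hdc+/+ array 2. Itih1, Itih3 and Itih4 follow each other with 0 protein-coding genes between them in the RefSeq gene table of GRCm38.p6, while Itih2 lies elsewhere.

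Proteins of clotting and fibrinolysis gave 9 genes, all lower on both Hdc-/- arrays than on both Hdc+/+ arrays, as 17.6% of all genes were. The group of 9 had a median log2 difference of -3.11. The fibrinogen chains, whose cleavage by thrombin gives the fibrin clot, were among the 4 most negative genes of this group, with Hrg. Fgg, for the gamma chain, read 2.57 and 2.11 on the Hdc-/- arrays, against 6.62 and 8.78 on the Hdc+/+ arrays, with a log2 difference of -5.36 (SE 0.68). Fgb, for the beta chain, read 3.48 and 3.54 on the Hdc-/- arrays, against 7.18 and 9.50 on the Hdc+/+ arrays, a log2 difference of -4.82 (SE 0.71). Fga, for the alpha chain, read 3.10 and 3.25 on the Hdc-/- arrays, against 5.82 and 8.12 on the Hdc+/+ arrays, a log2 difference of -3.79 (SE 0.71). The genes of the chains are direct neighbours in the gene table, and between the Hdc+/+ arrays they differed by nearly the same amount, 2.15 in Fgg, 2.32 in Fgb and 2.31 in Fga.

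The clotting factors had smaller differences than the fibrinogen chains. F2, for prothrombin, read 3.78 and 3.80 on the Hdc-/- arrays, against 5.13 and 7.08 on the Hdc+/+ arrays, a log2 difference of -2.31 (SE 0.60). F9, for factor IX, read 2.99 and 2.55 on the Hdc-/- arrays, against 4.06 and 6.34 on the Hdc+/+ arrays, a log2 difference of -2.43 (SE 0.71). F12, for factor XII, which starts the contact pathway, read 3.66 and 4.23 on the Hdc-/- arrays, against 4.99 and 6.29 on the Hdc+/+ arrays, a log2 difference of -1.69 (SE 0.45). Without Hdc+/+ array 2 the differences were -1.34 in F2, -1.30 in F9 and -1.04 in F12, and none of the 3 overlapped between genotypes. Plg encodes plasminogen, the precursor of the enzyme that dissolves fibrin. It read 4.18 and 4.63 on the Hdc-/- arrays, against 6.50 and 8.53 on the Hdc+/+ arrays, a log2 difference of -3.11 (SE 0.64).

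Hrg and Kng1 lie close to each other, with 1 protein-coding gene between them in the gene table, and differed in size of change. Hrg, for the histidine-rich glycoprotein that binds heparin and plasminogen, read 2.76 and 2.80 on the Hdc-/- arrays, against 5.36 and 7.87 on the Hdc+/+ arrays, a log2 difference of -3.84 (SE 0.77). Kng1, for kininogen, the source of bradykinin, read 2.72 and 2.56 on the Hdc-/- arrays, against 3.80 and 4.32 on the Hdc+/+ arrays, a log2 difference of -1.42 (SE 0.22). Kng1 had the smallest difference of the list both between the genotypes and between the Hdc+/+ arrays, at 0.52. It read below the median over all genes on all 4 arrays.

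The fetuins and a pair of further plasma proteins complete the list. Ahsg encodes fetuin-A, which keeps calcium phosphate in solution, and read 4.74 and 5.27 on the Hdc-/- arrays, against 8.47 and 10.43 on the Hdc+/+ arrays, a log2 difference of -4.45 (SE 0.63). Fetub, its direct neighbour in the gene table, encodes fetuin-B and read 3.78 and 3.76 on the Hdc-/- arrays, against 5.04 and 7.05 on the Hdc+/+ arrays, a log2 difference of -2.27 (SE 0.62). Neither overlapped between genotypes, and the Hdc+/+ arrays differed by 1.96 in Ahsg and 2.01 in Fetub. Cp, for the copper-carrying ferroxidase ceruloplasmin, read 4.71 and 4.14 on the Hdc-/- arrays, against 5.67 and 7.39 on the Hdc+/+ arrays, a log2 difference of -2.11 (SE 0.56). Vtn, for the adhesion protein vitronectin, read 5.46 and 5.88 on the Hdc-/- arrays, against 6.52 and 8.72 on the Hdc+/+ arrays, a log2 difference of -1.95 (SE 0.69) that was -0.85 without Hdc+/+ array 2 and -3.05 without Hdc+/+ array 1. Without Hdc+/+ array 2 the difference was -1.27 in Fetub and -1.25 in Cp.

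**Figure D2:**
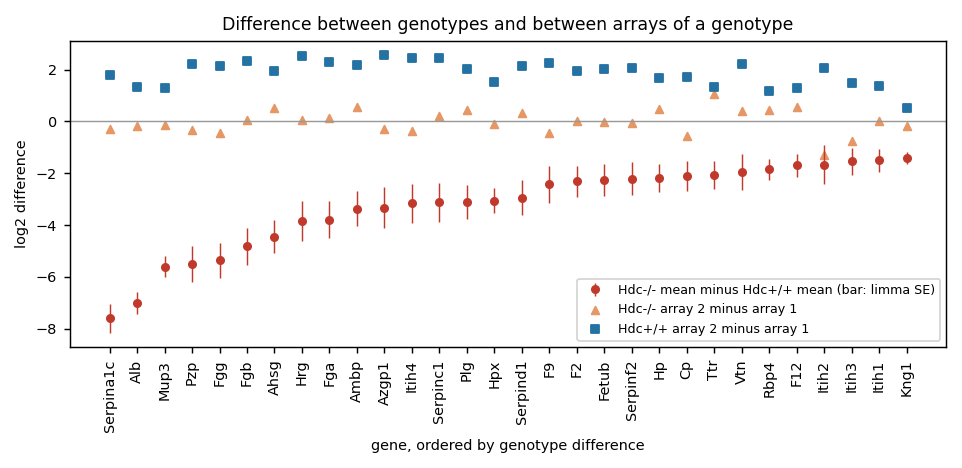
Log2 differences (vertical axis) of the 30 genes, ordered from the most negative genotype difference (Serpina1c) to the least (Kng1): the Hdc-/- mean minus the Hdc+/+ mean (red points, bars giving the limma standard error, n = 2 each), Hdc-/- array 2 minus array 1 (orange triangles) and Hdc+/+ array 2 minus array 1 (blue squares). The blue squares lie between 0.52 and 2.58, the orange triangles between -1.30 and 1.07.

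How low the Hdc-/- arrays lay depended on which Hdc+/+ array they were set against. Against Hdc+/+ array 1 alone, the median log2 difference of the list was -1.88, and 26 of the 30 genes were lower by at least 1, a rule that 1.38% of all genes met. The 4 that were not were Itih1, Itih2, Itih3 and Vtn. The differences of 15 genes shrank by over 1.5 times when Hdc+/+ array 2 was left out. Against Hdc+/+ array 2 alone, the median was -3.92 and all 30 genes were lower by at least 1, which 3.04% of all genes were. For Alb the log2 difference was -6.36 against Hdc+/+ array 1 and -7.68 against Hdc+/+ array 2. On the Hdc-/- arrays 20 and 21 of the 30 genes read below the median over all genes, while 3 did so on Hdc+/+ array 1 and 1 on Hdc+/+ array 2. No background values were used here, so whether a gene was detected at all on the Hdc-/- arrays was not tested.

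**Figure D3:**
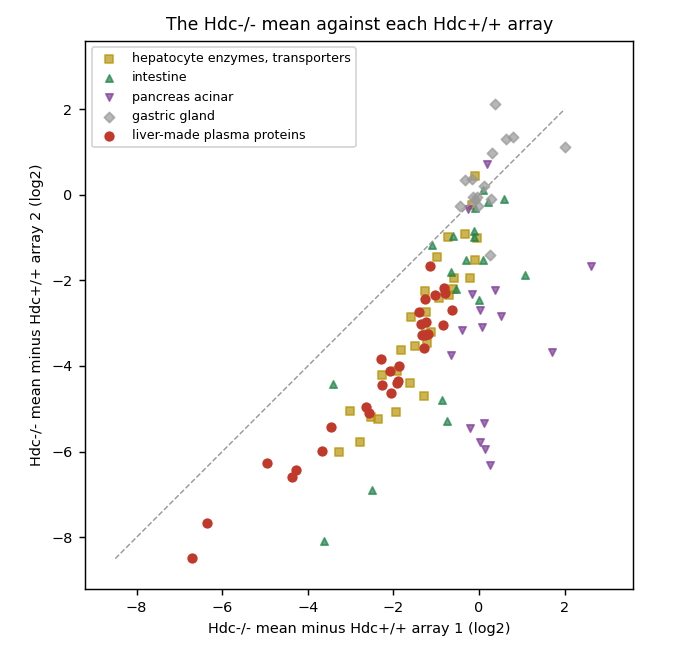
The Hdc-/- mean minus Hdc+/+ array 1 (horizontal axis) and minus Hdc+/+ array 2 (vertical axis), both in log2 units, for the 30 plasma protein genes (red) and for lists of hepatocyte enzymes and transporters, intestine, pancreas acinar and gastric gland genes. Both axes share the Hdc-/- mean. All red points lie below the dashed line of equal differences, and the pancreas genes with the lowest vertical values lie near 0 on the horizontal axis.

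Other genes of liver and of neighbouring organs were read beside the list, from lists drawn up with earlier results of these data known. Of all genes, 17.6% were lower in Hdc-/- without overlap, and 1.98% were lower by at least 1 without overlap. Among 41 other plasma protein genes, 26 were lower in Hdc-/- without overlap and 16 of them by at least 1, with a median log2 difference of -0.71, which was -0.45 without Hdc+/+ array 2 and -1.06 without array 1. In the other direction 2 were higher without overlap, Serpina7 (1.18) and Habp2 (0.84), as 21.5% of all genes were. A1bg (-4.47), Serpina6 (-3.26) and Orm1 (-3.10), the last for an acid glycoprotein of plasma, were the most negative. The 3 genes of that list with the highest mean value were Hamp, Serping1 and Serpina3n. Hamp, for the iron hormone hepcidin (-1.98), read 9.18 and 7.42 on the Hdc-/- arrays, against 9.50 and 11.05 on the Hdc+/+ arrays. Serping1, for the C1 inhibitor, had a difference of -1.14. Serpina3n (-0.15) overlapped between genotypes.

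Intracellular genes of hepatocytes lay lower too. The counts below stand beside 17.6% of all genes lower without overlap and 1.98% lower by at least 1 without overlap. Of 30 genes for hepatocyte enzymes and transporters, 26 were lower in Hdc-/- without overlap and 24 by at least 1, with a median log2 difference of -2.20, which was -1.24 without Hdc+/+ array 2. Between Hdc+/+ array 2 and array 1 their median difference was 1.77. Cps1, for the first enzyme of the urea cycle, read 3.57 and 3.91 on the Hdc-/- arrays, against 6.53 and 9.52 on the Hdc+/+ arrays. The mean level of these genes was 3.63 and 3.83 on the Hdc-/- arrays, against 5.05 and 6.78 on the Hdc+/+ arrays. The regulators of hepatocyte genes differed by less, with a median log2 difference of -0.32 over 15 genes (-0.56 without Hdc+/+ array 1). Of the 15, 8 were lower without overlap and 3 by at least 1, namely Creb3l3 (-1.40), Nr1h4 (-1.17) and Nr1i2 (-1.04). Hnf4a (-0.17), Foxa1 (0.32) and Foxa3 (-0.29), those with the highest mean value, are also used by stomach and gut epithelium. Hnf4a and Foxa3 overlapped between genotypes, while Foxa1 read 9.71 and 9.50 on the Hdc-/- arrays, against 9.21 and 9.36 on the Hdc+/+ arrays, higher without overlap. Markers of other liver cells, such as Kupffer and sinusoidal cells, had a median of -0.59 over 15 genes (-0.28 without Hdc+/+ array 2), with 11 lower without overlap and 3 by at least 1. The part of liver tissue in the differences of the plasma protein genes was not tested.

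Genes of organs next to the stomach also differed between these arrays. Here too the shares of all genes were 17.6% lower without overlap and 1.98% lower by at least 1 without overlap. The 16 pancreas acinar genes differed between Hdc+/+ array 2 and array 1 by a median of 3.26 and by up to 6.55 in Cpb1, and 5 were lower in Hdc-/- without overlap. Their median genotype difference was -1.42, but -3.13 without Hdc+/+ array 1 and 0.086 without Hdc+/+ array 2. On Hdc+/+ array 1 their mean level was 4.75, against 4.99 and 5.05 on the Hdc-/- arrays and 8.39 on Hdc+/+ array 2. The 19 intestine genes had a median genotype difference of -0.91 (-1.53 without Hdc+/+ array 1 and -0.31 without Hdc+/+ array 2), with 8 lower by at least 1 without overlap, among them the phosphatase genes Akp3 (-5.85) and Alpi (-4.70). Of the 11 adipocyte genes 5 were lower by at least 1 without overlap, including Fabp4 (-2.88) and Car3 (-3.81). The median of the 11 was -0.80, or -1.50 with the dimmer 50% of genes left out. Fabp4 read 5.72 and 7.75 on the Hdc-/- arrays, against 9.20 and 10.03 on the Hdc+/+ arrays. Car3 read 4.80 and 8.58 on the Hdc-/- arrays, against 9.99 and 11.02 on the Hdc+/+ arrays. Between the Hdc-/- arrays 3 of the 11 differed by at least 1, as 2.04% of all genes did. The 15 gastric gland genes had a median of 0.10, with 0 lower and 2 higher by at least 1 without overlap, a higher difference of that size without overlap being shown by 0.559% of all genes. The 2 were Chia1, for an acidic chitinase (1.25), and Cblif, for gastric intrinsic factor (1.07). Chia1 read 10.81 on both Hdc-/- arrays, against 10.43 on Hdc+/+ array 1 and 8.70 on Hdc+/+ array 2. Its difference thus came mostly from Hdc+/+ array 2. Cblif read 9.905 and 10.26 on the Hdc-/- arrays, against 9.30 and 8.72 on the Hdc+/+ arrays. These lists were not tested against the plasma protein list, and their part in its differences was not tested. Of the red cell list only Slc4a1 was measured, at 4.08 and 4.51 on the Hdc-/- arrays, against 4.34 and 4.56 on the Hdc+/+ arrays.

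**Figure D4:**
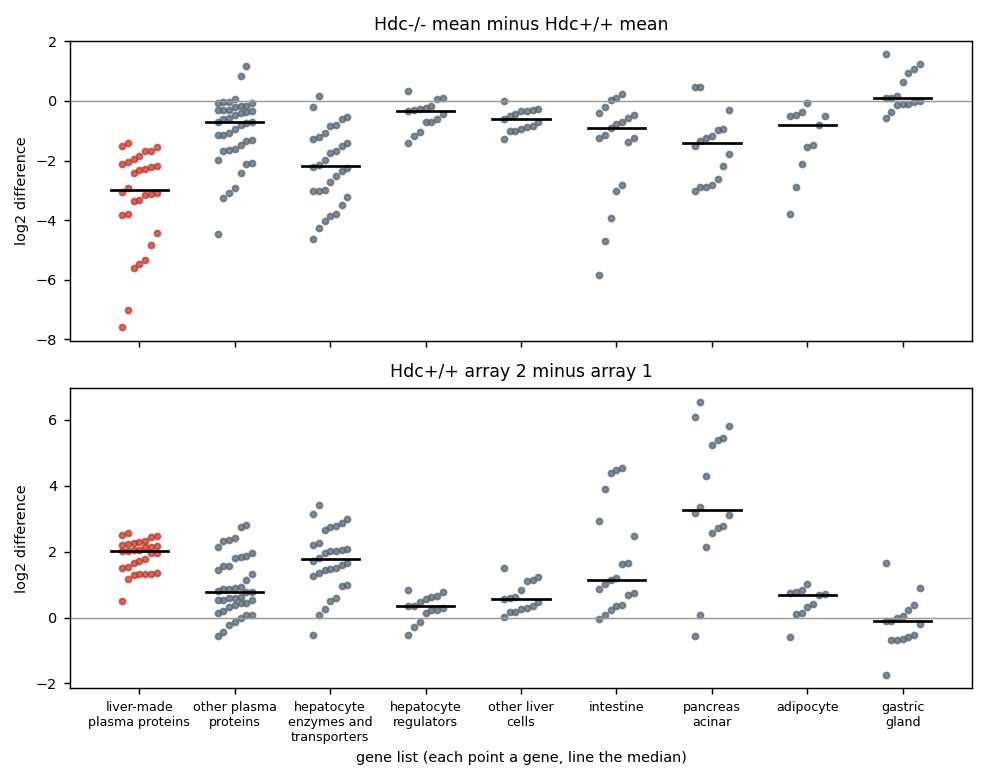
Log2 differences of the plasma protein genes (red) and of the compared lists (grey), with each point a gene and each black line a median: the Hdc-/- mean minus the Hdc+/+ mean (upper panel) and Hdc+/+ array 2 minus array 1 (lower panel). The plasma protein median lies at -3.00 above and at 2.02 below, and the pancreas median at -1.42 above and at 3.26 below.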

How the data were processed

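The deposited values are log2 probe set values that the authors normalised with RMA. That method, oligo and Affymetrix Power Tools are named per the submitters' processing notes, with no version or role. Biotin-labelled cDNA from total RNA was hybridised, per the labels' protocols. Not given in the sources used here: the level of summarisation, any filter and the genome build. Values ran from 0.384 to 13.3, and 4 arrays limit the precision.

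Of 41345 probe sets, 23521 had 1 gene symbol, 1814 several and 16010 none. Probe sets with 1 symbol were kept, the one with the highest mean standing for a gene, which left 22180 genes. All 30 measured list members matched the RefSeq gene table by symbol. Groups were compared with limma 3.58.1 in R 4.3.3 (lmFit, eBayes, no covariate, Benjamini-Hochberg adjustment over all genes), and a standard error (SE) is its moderated one. The fit was tested on simulated data of 22180 genes, where it called 1 of 50 genes lower by 1, 41 of 50 lower by 2 and 50 of 50 lower by 4 on the log2 scale. The simulated spread was drawn from that estimated across all genes, with no shared gap between arrays of 1 genotype. These shares therefore do not carry over to the list, whose Hdc+/+ arrays lay far apart and of which the fit to the real data called 0 genes lower.

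The members and lists were chosen with earlier results of these data known. All members are named. Of each compared list the 3 brightest genes were to be named, besides the 10 non-members with the most negative difference without overlap, and genes named beyond these were chosen after their values were seen. Alternatives were dim-gene filters, other normalisations, probe set means, a block and leaving out each array. A planned comparison of protein sequences was not made.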

Additional observations from a re-analysis of the deposited data

How the results depend on the processing

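The median difference of the list, Hdc-/- minus Hdc+/+, was -3.00 and ran from -3.92 to -1.88 with each array left out. The count of genes lower without overlap ran from 29 to 30 and that of genes lower by at least 1 without overlap from 26 to 30. Quantile normalisation, centring, probe set means and filters on the dimmest 25% or 50% of genes left the median and both counts within 1.5 times their value or within the spread between arrays. All 266 values of single list members under these alternatives kept a negative sign. Probe set means and the filters left the value of every kept member as it was, and centring barely moved it, so those values are no separate check. Over all genes, limma's calls at an adjusted p under 0.05 were 1 higher and 0 lower. With a trended and robust prior they were 3 higher and 2 lower, 0 of the list among them. Arrays with the same replicate number did not deviate together (r = -0.119 across genes between the deviations of the 2 pairs), and with the replicate block 1 gene was called higher and 6 lower, 3 of them of the list (Alb, Mup3 and Serpina1c). Crossing the numbers, a choice made after seeing the data, gave 0 higher and 0 lower. With arrays left out the counts ran from 0 to 3 higher and from 0 to 158 lower, the 158 without Hdc+/+ array 1, with 22 genes of the plasma protein list among them. The list was chosen on these values, so such calls give it no independent support. In each such fit the lone array's spread was taken from the other genotype, and the cause was not tested. Among the compared lists, the pancreas median of -1.42 was 0.086 without Hdc+/+ array 2, a reversed sign, and ran from -3.13 to 0.086 with each array left out, and the hepatocyte regulator median of -0.32 ran from -0.56 to -0.26. Over the same fits the intestine median ran from -1.53 to -0.31, that of hepatocyte enzymes and transporters from -3.03 to -1.24, that of other liver cells from -0.87 to -0.28, that of other plasma proteins from -1.06 to -0.45 and that of adipocyte genes from -1.19 to -0.65, in each case lowest without Hdc+/+ array 1 and nearest to 0 without Hdc+/+ array 2. Dropping the dimmest 50% of genes gave an adipocyte median of -1.50 and a gastric gland median of 0.015, which was 0.22 without Hdc+/+ array 1 against 0.10 with all arrays. Leaving out an Hdc-/- array does not bear on the difference between the Hdc+/+ arrays, and leaving out an Hdc+/+ array leaves no such difference.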

Other observations

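The 10 genes outside the list with the most negative difference without overlap were Akp3, S100g, Alpi, Sult3a1, Cyp2c29, Sult3a2, A1bg, Cyp2b9, Cps1 and Cyp2e1, with log2 differences from -5.85 to -4.03. They include intestinal alkaline phosphatases (Akp3 and Alpi), the intestinal calcium-binding protein calbindin-D9k (S100g) and detoxification enzymes of the cytochrome P450 and sulfotransferase families. S100g read 4.23 and 4.18 on the Hdc-/- arrays, against 8.33 and 10.97 on the Hdc+/+ arrays. Cyp2e1, a P450 enzyme of the liver, read 3.88 and 5.44 on the Hdc-/- arrays, against 7.68 and 9.71 on the Hdc+/+ arrays. Between Hdc+/+ array 2 and array 1 the alkaline phosphatase genes differed by 4.48 (Akp3) and 4.40 (Alpi), A1bg by 1.95 and Cyp2e1 by 2.03, beside a range from 0.52 to 2.58 in the plasma protein genes. No test was made of these values.

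Among the compared lists, the 3 genes with the highest mean value of each had these log2 differences, Hdc-/- minus Hdc+/+. Of the hepatocyte enzymes and transporters, Cyp2e1, Hpd, for an enzyme of tyrosine breakdown, and Fmo5 had -4.03, -2.73 and -0.85. Of the other liver cell markers, Lyve1, Fcna and Colec10 had -0.51, -0.33 and -0.72. Of the intestine genes, Lgals4, Rbp2 and Apoa4 had -1.14, -0.79 and -1.37. Of the pancreas genes, Clps, for colipase, read 12.02 and 12.20 on the Hdc-/- arrays, against 11.93 and 11.38 on the Hdc+/+ arrays, while Cela1 and Pnliprp1 had differences of -1.78 and 0.48. Of the adipocyte genes, Fabp4, Car3 and Pnpla2 had -2.88, -3.81 and -0.07, and Car3 read 4.80 on Hdc-/- array 1 and 8.58 on Hdc-/- array 2. Of the gastric gland genes, Gkn1, Gkn2 and Tff1 had -0.11, -0.05 and -0.09.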
